A study of Rattus norvegicus with 6 samples.

Results

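The interferon response genes are a set of 45 rat gene symbols that cover the interferon receptors and their kinases, the transcription factors of the pathway, sensors of foreign nucleic acid and the antiviral genes that interferon induces. They were chosen by symbol, with earlier results of these data known. All 45 were found among the 43350 gene rows of the deposited expression table. They took up 44 rows, because Ifitm2 and Ifitm3 shared 1 joined row, and the row of Irf9 was joined with Rnf31. Of these rows, 43 reached a mean FPKM (fragments per kilobase of row length, scaled to the library total) of at least 0.5 and were tested together with 26663 rows in all. Zbp1, a sensor of Z-form nucleic acid, lay below that level (mean FPKM 0.387) and did not enter the test.

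The samples were the ipsilateral L4–6 dorsal root ganglia (DRG) of male Sprague-Dawley rats 11 days after surgery, in 2 groups of 3. In the CCI group (chronic constriction injury) the left sciatic nerve was tied loosely, and in the sham group it was exposed and left untied, so anesthesia, incision and nerve exposure were shared by both groups. The methods give 1 rat per sample, whereas the labels mention a pooled sample and list no treatment for sham rats. RNA was depleted of ribosomal RNA and sequenced in paired ends, and total counts lay between 75423546 and 87615743 per library. Levels are given as CPM (counts per 1000000 reads of a library, after TMM scaling), with the libraries named CCI 1 to 3 and sham 1 to 3. A DRG is a mixed tissue, and in bulk RNA fewer cells of a type cannot be told apart from less RNA per cell.

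Type I interferons bind the receptor made of Ifnar1 and Ifnar2, and interferon gamma binds the receptor made of Ifngr1 and Ifngr2. The kinases Jak1, Jak2 and Tyk2 on these receptors phosphorylate transcription factors, among them Stat2, which enters the nucleus in a complex with Irf9. Type I interferon signals act through the interferon-stimulated response element (ISRE), and interferon gamma signals through the gamma-activated site (GAS). Many of the induced genes keep a low level without infection, and several of them, such as Stat2, Irf7, Irf9 and Usp18, act back on the pathway itself.

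Promoter sequences show which members carry these elements next to their start. RefSeq promoters (build GRCr8, 250 bases before to 50 after each annotated start) were matched for 33 of the 45 members. The ISRE-like letters GAAANNGAAA, or TTTCNNTTTC on the other strand, were present in 16 of the 33 member promoters (48.5%) and in 3.92% of all 33469 promoters. The GAS-like letters TTCNNNGAA, which read the same on both strands, were present in 8 of the 33 (24.2%) and in 8.87% of all promoters, and 4 members held both. The 2 motifs can share bases where they lie close together. A match describes letters in this window, not a bound site.
The 150 bases upstream of the start are shown for 4 members that differed widely between rats and for the RNA sensor gene Ifih1, with the ISRE-like match in capitals, 5′ to 3′ on the gene's strand.
Rsad2, chr6:48788121-48788270 (- strand): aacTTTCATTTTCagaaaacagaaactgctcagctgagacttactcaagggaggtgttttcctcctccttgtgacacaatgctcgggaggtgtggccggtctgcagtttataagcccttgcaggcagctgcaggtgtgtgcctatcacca
Oas1a, chr12:41330316-41330465 (+ strand): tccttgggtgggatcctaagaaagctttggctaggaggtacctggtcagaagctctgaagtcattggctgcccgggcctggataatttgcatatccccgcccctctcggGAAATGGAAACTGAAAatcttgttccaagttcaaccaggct
Irf7, chr1:205800024-205800173 (- strand): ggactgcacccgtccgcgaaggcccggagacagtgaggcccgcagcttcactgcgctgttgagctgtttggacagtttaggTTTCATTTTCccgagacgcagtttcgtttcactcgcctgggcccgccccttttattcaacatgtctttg
Ifit3, chr1:241527176-241527325 (+ strand): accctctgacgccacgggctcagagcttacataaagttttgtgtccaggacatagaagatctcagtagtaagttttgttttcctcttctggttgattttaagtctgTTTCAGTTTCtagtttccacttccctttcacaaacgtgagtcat
Ifih1, chr3:67683969-67684118 (- strand): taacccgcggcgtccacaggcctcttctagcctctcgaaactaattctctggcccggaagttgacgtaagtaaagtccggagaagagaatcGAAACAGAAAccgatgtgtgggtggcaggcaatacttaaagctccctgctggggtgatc
In Oas1a the capitals cover 2 overlapping matches. Oasl also differed between rats (within-group SD 0.44 on the log2 scale), but its window held neither motif. The same stretch is shown for the members that passed both limits of the comparison below, which held neither motif in the whole window.
Mx1, chr11:50294607-50294756 (- strand): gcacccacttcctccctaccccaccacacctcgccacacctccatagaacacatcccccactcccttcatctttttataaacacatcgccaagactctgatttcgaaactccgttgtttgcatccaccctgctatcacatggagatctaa
Sting1, chr18:27612449-27612598 (- strand): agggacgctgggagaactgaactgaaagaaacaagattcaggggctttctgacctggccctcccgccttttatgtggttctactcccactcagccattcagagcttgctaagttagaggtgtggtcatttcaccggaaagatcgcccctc

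Only Mx1 and Sting1 were upregulated DEGs in the CCI group, by an edgeR quasi-likelihood test with cut-offs of 0.05 for the unadjusted p and of 0.58 for the size of the log2 fold change. This was 2 of 43 tested rows (4.65%), whereas 686 of all 26663 rows were upregulated (2.57%). No member was a downregulated DEG, against 336 of all rows (1.26%). At a Benjamini-Hochberg adjusted p < 0.05, edgeR called 0 members, beside 25 of all rows (0.0938%), and limma called 0 members. DESeq2 called Mx1 alone (adjusted p = 0.00294), and its share over all rows is not given here. At an unadjusted p under 0.05 without a limit on the fold change, 12 members passed in edgeR (27.9%), 11 of them higher and Cmpk2 lower in the CCI group, against 10.7% of all rows. Apart from Mx1 and Sting1, none of these 12 reached the fold limit. The median log2 fold change over all 43 member rows was 0.03, beside 0.01 over all rows. In 9 members (20.9%) every CCI library lay above every sham library, which held for 8.62% of all rows. In Cmpk2 alone every CCI library lay below every sham library, which held for 8.7% of all rows. Of the 43 rows, 23 had a positive and 20 a negative log2 fold change. The count of upregulated members was 1 without CCI 3 or without sham 2 and 3 without CCI 1 or without sham 1. Without CCI 3, 2 members were downregulated and the median log2 fold change was -0.03. The shares of all rows above belong to the fit on all 6 libraries, and those of the fits with a library left out are not given here.

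**Figure D1:**
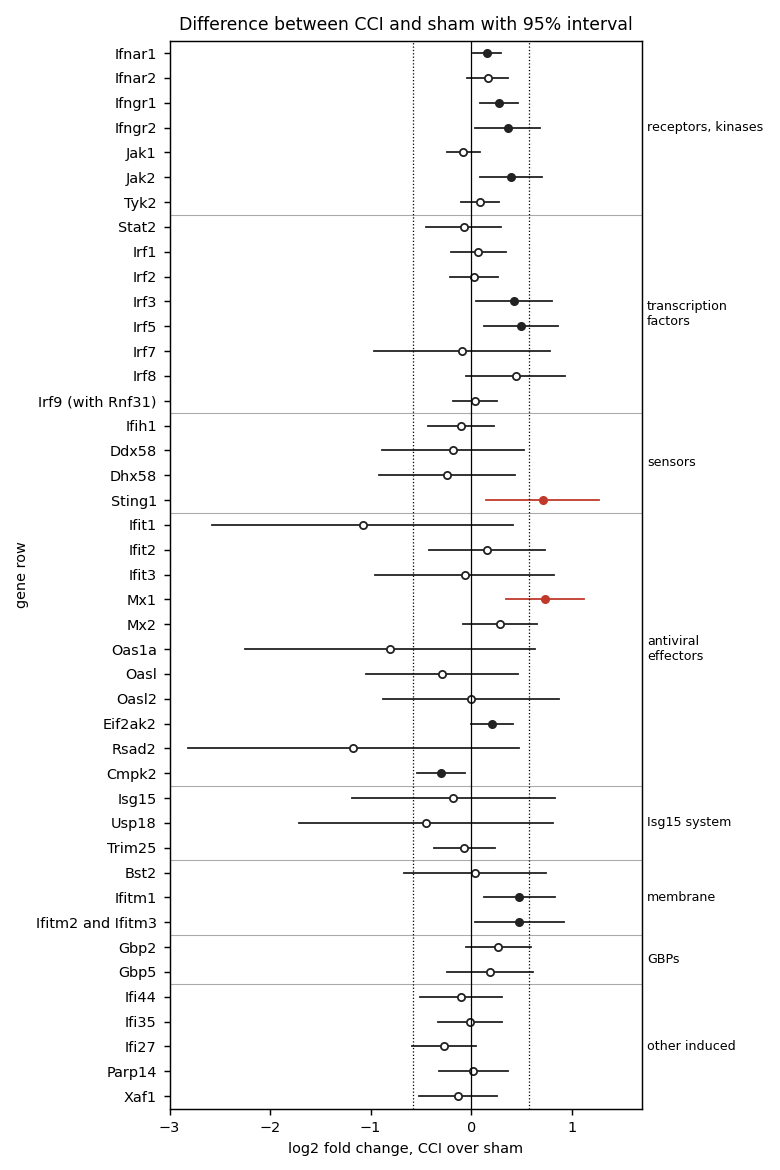
Log2 fold change of CCI over sham for the 43 tested rows, grouped by role, with 95% intervals from edgeR (n = 3 and 3). Filled points have an unadjusted p under 0.05, red rows also pass the fold limit, and dotted lines mark a log2 fold change of 0.58 in either direction. Only Mx1 and Sting1 are red, and the intervals of Rsad2, Oas1a, Ifit1 and Usp18 are the widest.

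Among the receptors and kinases, 4 of 7 rows had an unadjusted p under 0.05 (10.7% of all rows did), all higher in the CCI group, and 0 of 7 reached the fold limit. Ifngr1 (chr1:15062432-15080907 in the build of the deposited table, which all positions of gene rows follow), the ligand-binding chain of the interferon gamma receptor, measured 58.3, 54.6 and 49.5 CPM in CCI 1, 2 and 3 and 43.0, 43.7 and 47.2 CPM in sham 1, 2 and 3. The groups did not overlap in this row, and the log2 fold change was 0.28 ± 0.08 (SE, adjusted p = 0.296, edgeR). A further row with the symbol Ifngr1 and no listed type or strand lies just beyond it (chr1:15081035-15082540). It held 95, 178 and 187 counts in the CCI group and 224, 313 and 276 counts in the sham group. Its log2 fold change was -0.75 (unadjusted p = 0.0543, edgeR), opposite in sign. Jak2 is a kinase of the interferon gamma receptor. It measured 83.0, 62.4 and 60.3 CPM in the CCI group and 52.1, 53.5 and 50.7 CPM in the sham group. CCI 1 was the highest library and the groups did not overlap (log2 fold change 0.40 ± 0.13, adjusted p = 0.347). Ifngr2, the second chain, measured 30.0, 21.4 and 24.6 CPM in the CCI group against 19.9, 20.9 and 18.2 CPM in the sham group. These values did not overlap either (log2 fold change 0.37 ± 0.13, adjusted p = 0.408).

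The type I receptor chain Ifnar1 measured 104.9, 109.9 and 109.7 CPM in the CCI group and 102.4, 92.2 and 96.7 CPM in the sham group. The groups stood apart by a narrow gap (log2 fold change 0.16 ± 0.06, adjusted p = 0.418). Ifnar2, its partner chain, overlapped between groups (log2 fold change 0.16 ± 0.09, adjusted p = 0.582). Ifnar2, Ifnar1 and Ifngr2 lie in a row on chromosome 11 between 31539016 and 31712611 of the build the table uses, together with the interleukin 10 receptor chain Il10rb, whose log2 fold change was 0.21 ± 0.11 (adjusted p = 0.550). Jak1, the kinase shared by both receptors, was the highest kinase per length (mean 46.9 FPKM) and had a log2 fold change of -0.08 ± 0.07 (adjusted p = 0.765). Its 95% interval, from -0.24 to 0.08, lay inside the fold limit. Tyk2 had a log2 fold change of 0.09 ± 0.08 (adjusted p = 0.766). Unlike these receptor and kinase rows, 7 of 15 macrophage markers were upregulated DEGs (2.57% of all rows were). Among these 7, Cd68, Csf1r, Cx3cr1 and Tyrobp had already been reported by the paper as upregulated in these data. The lowest adjusted p among the 15 markers was 0.124 (edgeR). The part of macrophage content in the receptor differences was not tested.

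Of the 8 transcription factors, Irf5 and Irf3 had an unadjusted p under 0.05 (10.7% of all rows did) and none reached the fold limit. Irf5, which drives inflammatory cytokine genes in myeloid cells, measured 4.19, 3.93 and 4.17 CPM in the CCI group and 3.18, 2.52 and 3.00 CPM in the sham group. Every CCI rat lay above every sham rat (log2 fold change 0.50 ± 0.15, adjusted p = 0.327). Irf3, which the sensors activate by phosphorylation, measured 34.8, 43.9 and 50.3 CPM in the CCI group and 36.6, 31.5 and 28.0 CPM in the sham group. CCI 1 lay below sham 1, so that the groups overlapped (log2 fold change 0.42 ± 0.16, adjusted p = 0.414). Irf8, a factor of the myeloid lineage, had a log2 fold change of 0.44 ± 0.21 (adjusted p = 0.524), and without sham 1 it was 0.63 (adjusted p = 0.419) and passed both limits.

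Stat2 and Irf9 overlapped between groups. Stat2 had a log2 fold change of -0.07 ± 0.15 (adjusted p = 0.917). The row that joins Irf9 with Rnf31 stood at 0.04 ± 0.09 (adjusted p = 0.930). Irf1 and Irf2, an activator and a repressor at the same elements, had log2 fold changes of 0.07 ± 0.11 and 0.03 ± 0.10. Irf7, the factor that amplifies type I interferon production, measured 4.01, 6.65 and 9.93 CPM in the CCI group and 6.23, 5.74 and 9.92 CPM in the sham group. Its highest CCI and highest sham values were nearly equal, and the variation within each group exceeded the difference between groups (log2 fold change -0.09 ± 0.37, adjusted p = 0.961).

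Sting1, the membrane adaptor of the cytosolic DNA sensor, was the upregulated DEG among the sensors (chr18:28529576-28535828 of the table's build). It measured 2.37, 2.12 and 2.83 CPM in CCI 1, 2 and 3 and 1.31, 1.28 and 1.89 CPM in sham 1, 2 and 3. All CCI values lay above all sham values, although sham 3 came close to CCI 2. The log2 fold change was 0.71 ± 0.23 (fold 1.64, adjusted p = 0.357), with a 95% interval from 0.15 to 1.27. The level was low (mean 0.877 FPKM), and the call was lost without CCI 3 (log2 fold change 0.59, adjusted p = 0.543), without sham 1 (0.62, adjusted p = 0.533) and without sham 2 (0.61, adjusted p = 0.631).

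The RNA sensors went the other way in sign, and none of them had an unadjusted p under 0.05. Ddx58, which encodes RIG-I, measured 4.87, 6.91 and 9.43 CPM in the CCI group and 6.15, 7.49 and 10.4 CPM in the sham group. CCI 1 and sham 1 were the lowest libraries of their groups, and CCI 3 and sham 3 the highest (log2 fold change -0.18 ± 0.29, adjusted p = 0.889). Dhx58, which encodes the related regulator LGP2, measured 2.16, 3.12 and 3.88 CPM in the CCI group and 3.24, 2.92 and 4.68 CPM in the sham group. Again CCI 1 was lowest and sham 3 highest (log2 fold change -0.24 ± 0.28, adjusted p = 0.839). Ifih1, which encodes MDA5, had a log2 fold change of -0.10 ± 0.14 (adjusted p = 0.862). Zbp1 in its protein-coding row measured between 2.27 and 3.38 CPM in the 6 libraries, with overlapping groups. A further row with the same symbol and no listed type, which overlaps it on the opposite strand, held 208, 204 and 888 counts in the CCI group and 74, 895 and 74 counts in the sham group, so that CCI 3 and sham 2 stood far above the other libraries. Use of strand in the counting is not stated, so reads of these overlapping rows cannot be told apart with certainty.

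**Figure D2:**
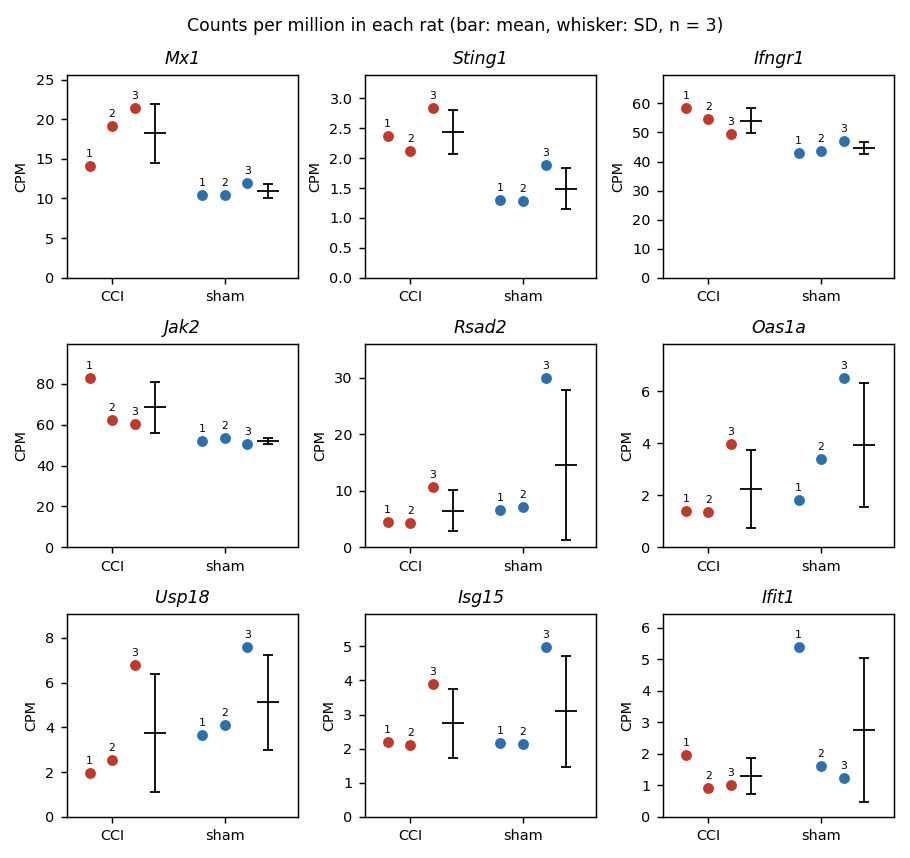
CPM of 9 members in each rat, with replicate numbers beside the points and the mean ± SD at the right of each group (n = 3). Mx1, Sting1, Ifngr1 and Jak2 do not overlap between groups, whereas Rsad2, Oas1a, Usp18 and Isg15 are highest in CCI 3 and sham 3, and Ifit1 is highest in sham 1.

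Mx1 was the member with the lowest p. It encodes an interferon-induced GTPase that blocks virus replication (chr11:37891053-37915201). It measured 14.2, 19.1 and 21.4 CPM in CCI 1, 2 and 3 and 10.4, 10.5 and 11.9 CPM in sham 1, 2 and 3. The lowest CCI value lay above the highest sham value. The log2 fold change was 0.73 ± 0.16 (fold 1.66, adjusted p = 0.201, edgeR), with a 95% interval from 0.34 to 1.12. It was between 0.60 and 0.89 with any library left out, and 0.57 with limma on log2(FPKM + 1), which is under the fold limit. Its neighbour Mx2 measured 66.2, 54.8 and 66.4 CPM in the CCI group and 52.2, 40.9 and 60.6 CPM in the sham group. The groups overlapped (log2 fold change 0.29 ± 0.15, adjusted p = 0.592).

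Among the other antiviral effectors, Eif2ak2 and Cmpk2 had an unadjusted p under 0.05 (10.7% of all rows did) with small fold changes. Eif2ak2, the RNA-activated kinase PKR that halts translation, measured 34.9, 38 and 42.4 CPM in the CCI group and 33.1, 31.9 and 34.7 CPM in the sham group. The groups were separated by a small margin (log2 fold change 0.21 ± 0.09, adjusted p = 0.465). Cmpk2, a mitochondrial nucleotide kinase, measured 13.6, 15.7 and 16.4 CPM in the CCI group and 18.8, 17.6 and 19.7 CPM in the sham group. It was the member in which every CCI rat lay below every sham rat (log2 fold change -0.30 ± 0.10, adjusted p = 0.362).

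The effectors with the lowest fitted fold changes moved with the libraries that were left out. Rsad2, which encodes viperin and lies next to Cmpk2 on chromosome 6 (chr6:45655954-45669148 and chr6:45683234-45694822), measured 4.49, 4.35 and 10.6 CPM in CCI 1, 2 and 3 and 6.67, 7.13 and 30.0 CPM in sham 1, 2 and 3. Sham 3 was 4.34 times the mean of the other sham rats, and CCI 3 was 2.40 times the mean of the other CCI rats. The log2 fold change was -1.17 ± 0.68 (adjusted p = 0.631), and -0.09 (adjusted p = 0.973) without sham 3. With CCI 3 and sham 3 both left out it was -0.64 (adjusted p = 0.489), past both limits. Cmpk2 did not share this spread, with ratios of 1.08 in sham 3 and 1.12 in CCI 3. Oas1a, which makes the 2-5 oligoadenylates that activate RNase L, measured 1.39, 1.35 and 3.96 CPM in the CCI group and 1.83, 3.40 and 6.50 CPM in the sham group. Its log2 fold change was -0.81 ± 0.60 (adjusted p = 0.718), and -1.51 (adjusted p = 0.460) without CCI 3, when it passed both limits. Without sham 3 it was -0.23 (adjusted p = 0.950).

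Ifit1, a protein that binds foreign RNA caps, had a different order. It measured 1.97, 0.917 and 1.01 CPM in the CCI group and 5.38, 1.61 and 1.25 CPM in the sham group. Sham 1 alone stood high (log2 fold change -1.08 ± 0.62, adjusted p = 0.625), and without sham 1 the log2 fold change was -0.14 (adjusted p = 0.940). Sham 1 was also the library with the highest summed skeletal muscle markers (395.2 CPM, against 8.88 to 50.7 in the others) and the highest summed neutrophil markers (21.6 CPM, against 6.29 to 10.7), and their part in the Ifit1 value was not tested. Ifit2 and Ifit3, from the same gene cluster on chromosome 1, did not show it. Ifit2 measured 9.67 CPM and Ifit3 2.01 CPM in sham 1, the lowest sham values of each gene. Their log2 fold changes were 0.16 ± 0.24 and -0.06 ± 0.37. Oasl and Oasl2, relatives of the oligoadenylate synthetases, had log2 fold changes of -0.29 ± 0.32 and 0.00 ± 0.36, the second between 4.58 CPM in sham 2 and 11.7 CPM in sham 1.

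Isg15 is a small protein that is joined to other proteins like ubiquitin, Usp18 removes it and dampens the receptor, and Trim25 is a ligase that acts on RIG-I. None of the 3 had an unadjusted p under 0.05, and all 3 had negative log2 fold changes, although that of Isg15 turned to 0.34 without sham 3 and was -0.52 without CCI 3. Isg15 measured 2.20, 2.12 and 3.90 CPM in the CCI group and 2.17, 2.14 and 4.97 CPM in the sham group. The groups covered nearly the same range, with CCI 3 and sham 3 apart from the others (log2 fold change -0.18 ± 0.42, 95% interval -1.19 to 0.83, adjusted p = 0.930). Usp18 measured 1.94, 2.55 and 6.77 CPM in the CCI group and 3.66, 4.12 and 7.57 CPM in the sham group. The same libraries were highest (log2 fold change -0.45 ± 0.53, adjusted p = 0.839), and without CCI 3 the log2 fold change was -1.19 (adjusted p = 0.407), past both limits. Without sham 3 it was -0.05 (adjusted p = 0.988). Trim25 varied less and stood at -0.07 ± 0.13 (adjusted p = 0.906).

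Of the 3 rows of membrane-bound restriction factors, 2 were higher after CCI with an unadjusted p under 0.05 (10.7% of all rows passed it in either direction). Ifitm1, which hinders virus entry at the membrane, measured 8.21, 9 and 7.35 CPM in the CCI group and 6.75, 5.49 and 5.38 CPM in the sham group. The groups did not overlap (log2 fold change 0.48 ± 0.15, adjusted p = 0.322), and without sham 1 the value was 0.59 (adjusted p = 0.366), past both limits. The joined row of Ifitm2 and Ifitm3 measured 31.4, 49.0 and 48.3 CPM in the CCI group and 26.8, 31.6 and 33.9 CPM in the sham group. CCI 1 lay within the sham range (log2 fold change 0.48 ± 0.19, adjusted p = 0.427), and without it the value was 0.66 (adjusted p = 0.193), past both limits. These genes are near-identical neighbours on chromosome 1, so reads could be split between them by the authors' counting. The joined row also spans the Ifitm1 row on the opposite strand. Use of strand in the counting is not stated, so reads of these rows cannot be told apart with certainty. Bst2, which tethers budding virus, had a log2 fold change of 0.04 ± 0.29 (adjusted p = 0.980).

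The remaining induced genes overlapped between groups in every case. The guanylate-binding proteins Gbp2 and Gbp5, interferon gamma targets that act on vacuoles holding pathogens, had log2 fold changes of 0.27 ± 0.14 (adjusted p = 0.559) and 0.19 ± 0.18 (adjusted p = 0.788). Ifi27, a small mitochondrial protein, had the highest level of all members per length (mean 62.6 FPKM) and a log2 fold change of -0.27 ± 0.13 (adjusted p = 0.550). Ifi44, Ifi35, Parp14 and Xaf1 had log2 fold changes between -0.13 and 0.02. The median of the members' mean levels was 3.58 FPKM, beside 2.41 FPKM over all tested rows, and the lowest tested member was Oasl (0.741 FPKM).

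**Figure D3:**
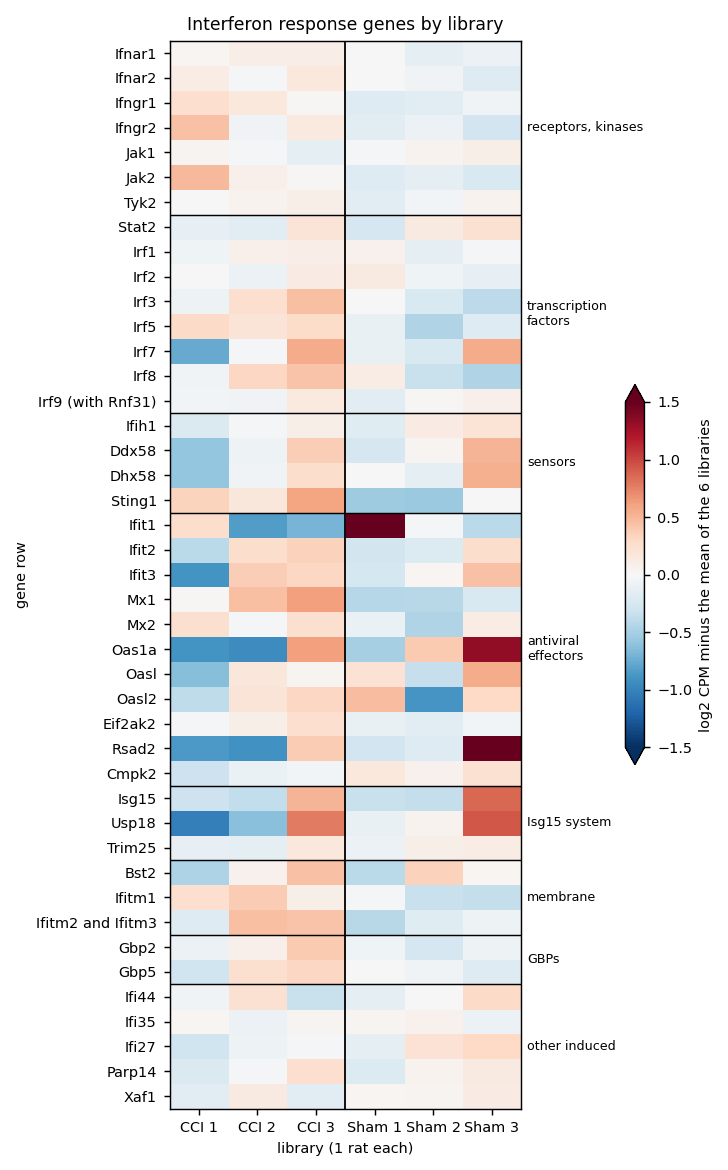
Log2 CPM of the 43 tested rows in each library, relative to the mean of that row over the 6 libraries, with red above and blue below it. Rows such as Rsad2, Oas1a, Isg15, Usp18, Irf7 and Ddx58 are red in CCI 3 and sham 3 and blue in CCI 1, whereas most receptor and kinase rows are redder in the CCI libraries.

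The members spread within groups about as much as other rows, with an SD over 0.4 on the log2 scale in 11 of 43 (25.6%) and in 28.6% of all rows, but they tended to share the order of the rats. Among the CCI rats, CCI 3 had the top value in 30 of 43 rows (69.8%), beside 33.4% of all tested rows. Among the sham rats, sham 3 had the top value in 27 rows (62.8%), beside 33.6% of all rows. In 20 rows (46.5%) both held, beside 10.6% of all rows. CCI 1 was the lowest CCI library in 23 rows (53.5%), beside 35.5% of all rows. The members share their libraries and are known to be induced together, so these counts describe these 6 rats and are not independent observations. Over the 43 rows, the deviations of CCI 3 and sham 3 from their group means on the log2 scale correlated with r = 0.76, and over all rows with r = -0.05, points that share libraries and scaling. This was the highest value of any CCI and sham pair over the members. The others lay between -0.64 (CCI 3 with sham 1) and 0.56 (CCI 1 with sham 1). Deviations from a group mean are tied to one another, so the pairs are not separate results.

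Of the 20 rows highest in both CCI 3 and sham 3, 7 were among the 11 antiviral effectors, 4 among the 4 tested sensors and 3 among the 3 rows of the Isg15 group. Only Tyk2 came from the 7 receptors and kinases, and none of the 3 membrane restriction rows or 2 guanylate-binding rows was among them. Besides Tyk2, the rows were Stat2, Irf7, Irf9, Ifih1, Ddx58, Dhx58, Sting1, Ifit2, Mx1, Mx2, Oas1a, Eif2ak2, Rsad2, Cmpk2, Isg15, Usp18, Trim25, Ifi27 and Parp14. The size of the step differed among them. Usp18 in CCI 3 was 3.01 times the mean of CCI 1 and 2, and in sham 3 it was 1.95 times the mean of sham 1 and 2. Oas1a had ratios of 2.89 and 2.49, Irf7 of 1.86 and 1.66, and Isg15 of 1.80 and 2.30. Mx1 had ratios of 1.29 and 1.14, smaller than its difference between groups. The median within-group SD on the log2 scale was 0.23 over all members, 0.10 in receptors and kinases, 0.44 in antiviral effectors and 0.60 in the Isg15 group, beside 0.22 over all rows.

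**Figure D4:**
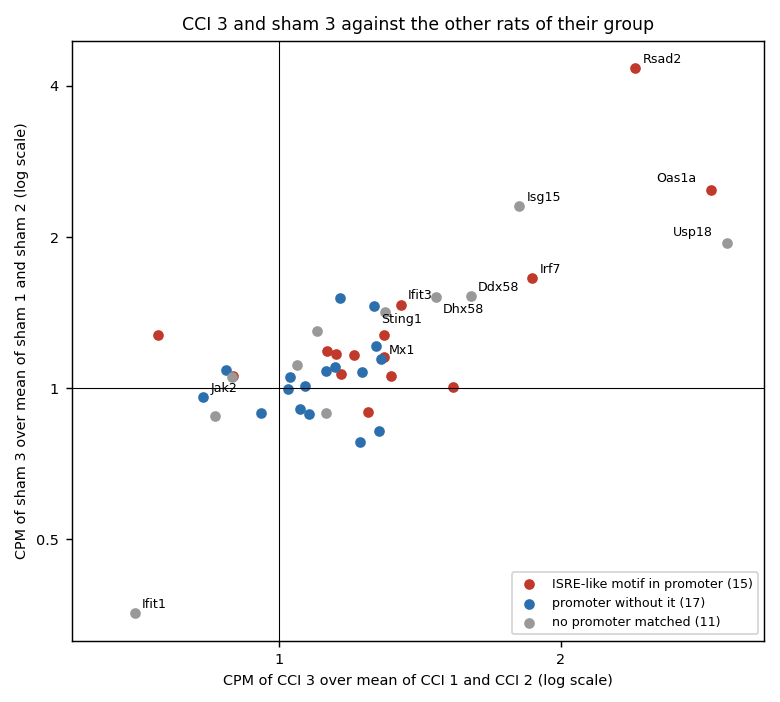
For each of the 43 tested rows, the CPM of CCI 3 over the mean of CCI 1 and 2 (horizontal, log scale) and of sham 3 over the mean of sham 1 and 2 (vertical, log scale), colored by the ISRE-like letters in the promoter. Rsad2, Oas1a, Usp18, Isg15 and Irf7 lie far to the upper right, and Ifit1 lies at the lower left.

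Members with and without the ISRE-like letters can be set side by side, but these sets also differ in role. Ifnar1, Ifnar2, Ifngr1, Ifngr2 and Jak2 lacked the letters, as did every transcription factor with a matched promoter except Irf7. Letters and role cannot be told apart in the values below. The 15 tested rows with such a promoter had a median log2 fold change of -0.06, with 6 positive and 9 negative. The 17 rows with a promoter that lacked the letters had a median of 0.16, with 12 positive and 5 negative. CCI 3 was the highest CCI library in 11 of the 15 rows (73.3%) and in 11 of the 17 (64.7%). Sham 3 was the highest sham library in 11 of the 15 (73.3%) and in 8 of the 17 (47.1%). CCI 1 was the lowest CCI library in 11 of the 15 (73.3%) and in 7 of the 17 (41.2%). The median within-group SD was 0.25 and 0.14. The remaining 11 tested rows had no matched promoter, among them Isg15, Usp18, Ddx58, Dhx58 and Ifit1, and these values describe the members without a test.

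Most of the interferons themselves were at or near the limit of detection. Ifnb1, Ifng, Ifnl1 and Ifnl3 had 0 counts in all 6 libraries, which allows a level of up to 0.0341 to 0.0394 CPM per library (3 counts, counting error only). The 6 interferon alpha rows found, whose sequences are near-identical, held between 0 and 14 counts. Ifnk, the kappa interferon of epithelium, was above it and held 56, 56 and 80 counts in the CCI group and 50, 92 and 68 counts in the sham group. These overlapped (log2 fold change -0.07 ± 0.36, adjusted p = 0.969).

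Of 142 further symbols of the pathway, 122 were found and 96 rows were tested. Of these, 5 were upregulated DEGs (5.21%, beside 2.57% of all rows) and 0 were downregulated DEGs (beside 1.26%). In edgeR 0 had an adjusted p < 0.05, and 19 had an unadjusted p under 0.05 (19.8%, beside 10.7% of all rows). DESeq2 gave 6 with an adjusted p < 0.05, limma 0, and the share of all rows under DESeq2 is not given here. Cxcl9, a chemokine induced by interferon gamma, measured 2.93, 4.26 and 3.06 CPM in the CCI group and 1.37, 0.668 and 0.737 CPM in the sham group (log2 fold change 1.88 ± 0.34, adjusted p = 0.135). Socs3, an inhibitor of cytokine receptors that interleukin 6 family signals also induce, measured 6.81, 6.07 and 3.02 CPM in the CCI group and 1.80, 1.42 and 1.79 CPM in the sham group (log2 fold change 1.67 ± 0.32, adjusted p = 0.157). Ifnlr1, the receptor chain for lambda interferons, measured 11.9, 6.71 and 6.95 CPM in the CCI group and 4.25, 3.84 and 4.48 CPM in the sham group (log2 fold change 1.02 ± 0.25, adjusted p = 0.234). In these 3 genes every CCI rat lay above every sham rat, and for Socs3 and Ifnlr1 CCI 1 was the highest library. Ifi30, a thiol reductase of antigen processing, and Ifi47, an interferon-induced GTPase, both had a log2 fold change of 0.66 (adjusted p = 0.119 and adjusted p = 0.235, edgeR). The median log2 fold change of the 96 rows was 0.09, with 65 positive and 31 negative.

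**Figure D5:**
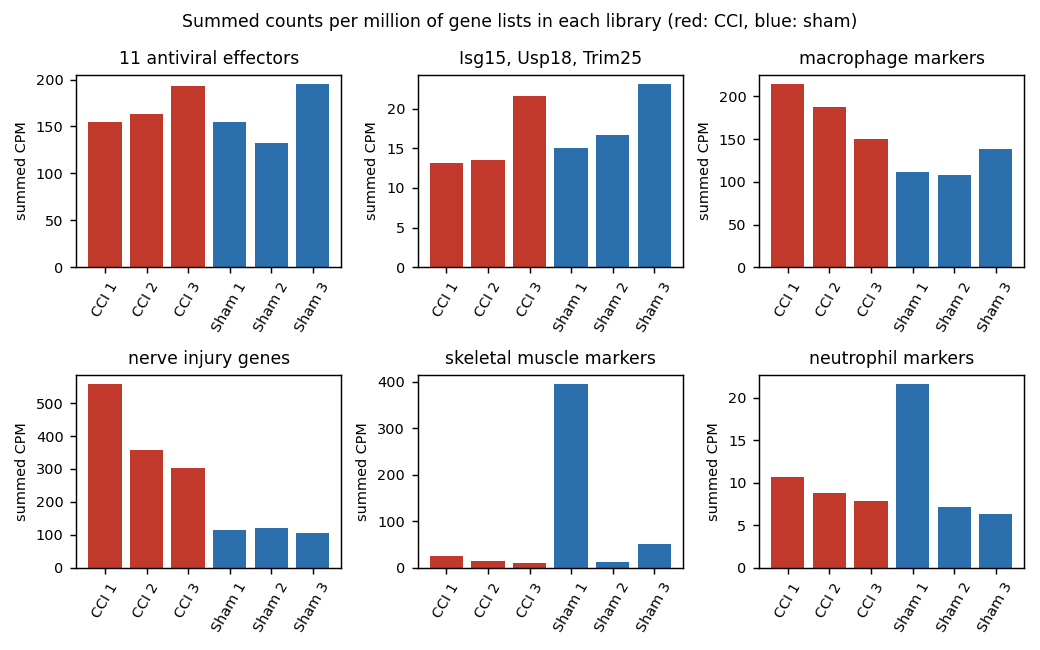
Summed CPM of 2 groups of members and 4 marker lists in each library (bars from 0, 1 rat per bar, red for CCI and blue for sham). The effector and Isg15 groups are highest in CCI 3 and sham 3, the macrophage and nerve injury lists in CCI 1, and the muscle and neutrophil lists in sham 1.

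The libraries also differed in other cell types and in the mark of injury. The defining markers of sensory neurons were abundant in all libraries (summed 11270 to 13193 CPM). The 7 nerve injury genes, such as Atf3, were all upregulated DEGs (2.57% of all rows were), as the paper had already reported for these rats. Their summed level was 558.5, 357.6 and 302.7 CPM in CCI 1, 2 and 3 and 106.6 to 120.3 CPM in the sham libraries. The 15 macrophage markers had a median log2 fold change of 0.52, with summed levels of 214.9, 187.7 and 150.2 CPM in CCI 1, 2 and 3 and 111.6, 108.0 and 138.0 CPM in sham 1, 2 and 3. Within the CCI group the injury and macrophage sums were highest in CCI 1 and lowest in CCI 3, the reverse of the Isg15 group, whose sum was 13.2, 13.5 and 21.6 CPM. Within the sham group both the macrophage sum and the Isg15 group (15.1, 16.7 and 23.1 CPM) were highest in sham 3. Summed markers of T cells (1 to 1.94 CPM), NK cells (0.0455 to 0.695 CPM) and B cells (0.867 to 1.63 CPM) were near 0, with no marker of these lists reaching the test. The part of macrophage content in the members' values was not tested.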

How the data were processed

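RNA-seq of 6 DRG samples (3 CCI, 3 sham) was used, grouped by the labels. The authors used a rat genome named V101 as mapping reference. The submitters' processing notes name HISAT2 2.0 and StringTie 1.3.0. Whether strand was used in counting is not given in the sources used here. The deposited table holds raw counts per gene row, not normalized, and FPKM values that the authors made from them by library total and row length. A single row was taken per symbol, protein-coding first, then the largest total count. Further rows with the symbols Irf2, Jak1, Ifnar2 and Parp14 had log2 fold changes of 0.21, 0.06, 0.68 and 0.54. Of these, only that of Parp14 had an unadjusted p under 0.05 (edgeR).

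Counts were tested with edgeR 4.0.16 (quasi-likelihood, TMM, no block) in R 4.3.3 on the 26663 rows whose mean FPKM reached 0.5. FPKM served for the filter, for levels between genes and for limma 3.58.1. The cut-offs for DEGs were 0.05 (unadjusted p) and 0.58 (size of the log2 fold change), and p-values were adjusted over all tested rows. P-values set the difference between groups against the spread between these rats, which is estimated in part from other rows. An exact permutation test of 3 against 3 cannot go below 0.1. The test was first tried on simulated counts. DESeq2 1.42.0, other scalings, filters and pseudocounts, a replicate block and leaving out libraries were alternatives. Leaving out CCI 3 and sham 3 together was added after the data were seen. Every member was named, and of other pathway genes those past the limits and the ligands. A further gene set out to be named is not reported here. Of the marker lists, sums and genes that a result turned on were named. The members and lists were chosen with earlier results of these data known. Promoters and motifs were read from RefSeq GRCr8 with Python 3.11.15, whereas positions of gene rows are in the build of the deposited table.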

Additional observations from a re-analysis of the deposited data

How the results depend on the processing

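Of the 43 tested members, Mx1 kept its call in all alternatives but limma on log2(FPKM + 1), where its log2 fold change was 0.57, and Sting1 lost it there too (0.34) and without CCI 3, sham 1 or sham 2. Members called higher numbered 2, 0 with limma on log2(FPKM + 1), 1 with a mean FPKM of at least 1 (where Sting1 was not tested) and 1 to 3 with a library left out. Members called lower numbered 0, and 0 to 2 with a library left out (2 without CCI 3, Oas1a and Usp18). With CCI 3 and sham 3 left out together they were 2, Rsad2 (log2 fold change -0.64) and Usp18 (-0.79). With DESeq2, 1 member passed an adjusted p < 0.05. The median log2 fold change of members lay between -0.03 (without CCI 3) and 0.13 (without CCI 1), within the spread between rats. Other pathway genes called higher were 5, and 3 with limma on log2(FPKM + 1). Those called lower were 0, and 0 to 1 with a library left out (Oas1f without CCI 3), and 1 without CCI 3 and sham 3. With limma on log2(FPKM + 1), 410 of all rows were called higher and 161 lower, since the pseudocount shrinks the changes of low rows. Of 599 member values under alternatives, 583 kept their side of the limits.

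The replicate numbers were not taken to pair the rats, since no label ties them and deviations of same-numbered libraries over all rows correlated at -0.01, -0.02 and -0.05. Over the 43 members alone they correlated at 0.56, 0.16 and 0.76. With a replicate block, 4 members were called lower (Rsad2 -0.93, Ifit1 -0.86, Oas1a -0.81 and Usp18 -0.59 on the log2 scale) and 2 higher. Counts over all rows for that fit are not given here. Most interferon ligands had counts at or near 0, where no difference was detectable at this depth.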
